A study of Mus musculus with 6 samples.

Results

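The AP-1 and Atf3 transcription factors were followed in Pax7-expressing limb cells of mouse embryos. The 10 genes, Fos, Fosb, Fosl1, Fosl2, Jun, Junb, Jund, Atf3, Maff and Batf, were taken by name from the platform annotation, out of 18182 named genes, and all of their 14 probe sets out of 44994 were read. Where a gene had several probe sets, the one with the highest mean over all 6 arrays stands for it. The cells came from the limbs of E17.5 and E12.5 embryos, 3 arrays at each age, and every embryo carried the Tg:Pax7-nGFP transgene on a C57BL/6:DBA2 background. No wild type or untreated group was part of the design, so the ages were compared with each other only. The transgene puts a nuclear green fluorescent protein under Pax7 control. GFP-positive cells were sorted after limbs of both ages had been digested with trypsin, so any cell that still held the protein could pass the gate.

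AP-1 is a dimer of basic leucine zipper proteins that binds the TPA response element and related sites. Fos proteins need a Jun partner, whereas Jun proteins also pair with themselves and with ATF proteins. Several of these genes are immediate early genes, whose short-lived transcripts appear without new protein synthesis when growth factors, calcium or cell stress activate MAP kinases. In adult muscle stem cells the same transcripts are known to rise during tissue digestion as well as on activation in the living animal.

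At E17.5, 7 of the 10 genes were higher than at E12.5: Fosb, Atf3, Junb, Maff, Fosl2, Fos and Jun, by 2.65 to 8.08 on the log2 scale. None was lower, and Jund, Fosl1 and Batf did not pass the test. Over all 18182 genes 8.21% were called higher and 8.73% lower by the same test, limma with a Benjamini-Hochberg adjusted p under 0.05. The median difference of the 10 genes was 4.42, beside 0.003 for all genes. Of the 10, 8 had all 3 E17.5 arrays above all 3 E12.5 arrays, a pattern that 14.2% of all genes showed. At an unadjusted p under 0.05 the count was 8 higher and 0 lower, but the share of all genes at that threshold was not computed. All 7 called genes rose by at least 2, which 2.58% of all genes did with a call. Values are log2 signals after GCRMA. Its background model leaves probe sets that carry little specific signal crowded together at the bottom of the scale, and on these arrays that crowd lies mostly below 4. By probe set, 8 of the 14 were called higher (4.54% of all 44994) and 0 lower (4.35% of all). The Fos probe set was not called over all probe sets in 7 alternatives, among them A and B averaged (adjusted p = 0.0751, limma), although Fos stayed called over genes in each.

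**Figure D1:**
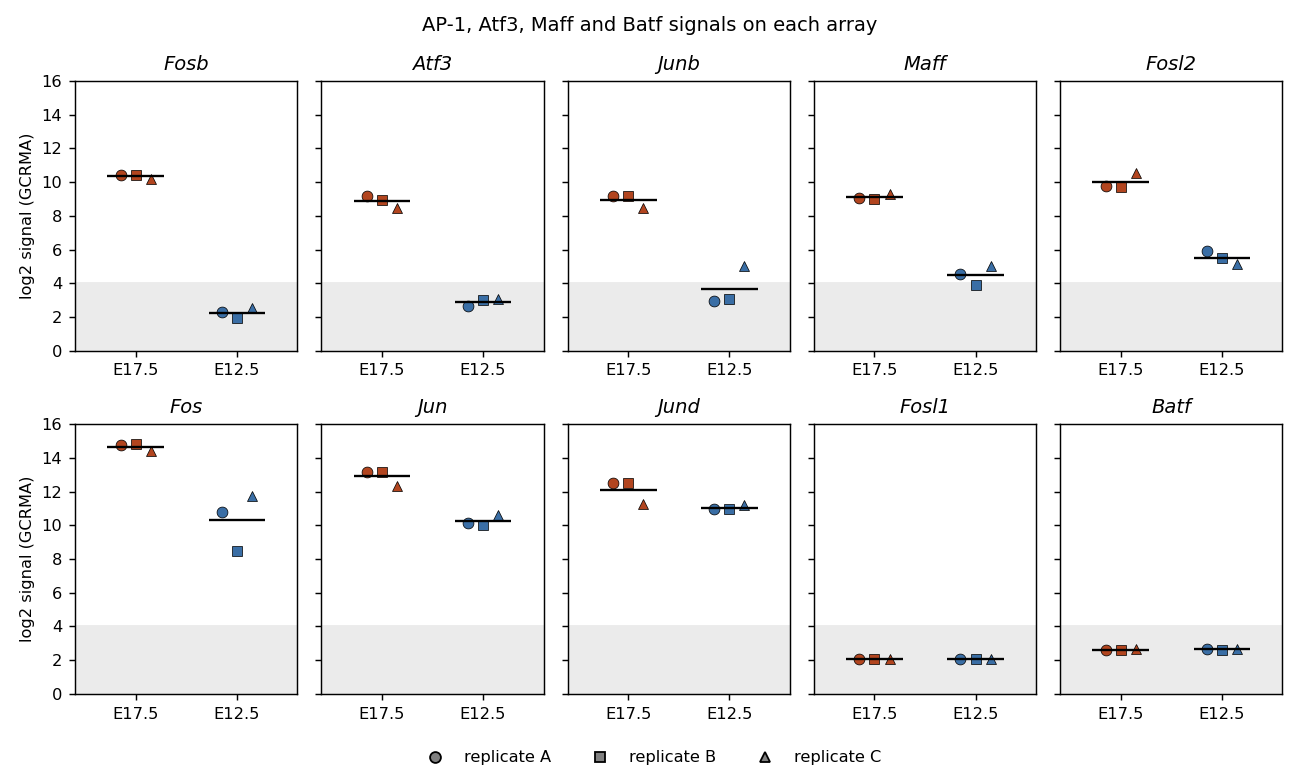
Log2 signal (vertical axis) of each of the 10 genes on the 3 E17.5 arrays (left in each panel) and the 3 E12.5 arrays (right), with the mean of each age as a line, marker shape for the replicate letter, and grey for values under 4. In 8 panels the ages do not overlap, and Fosl1 and Batf lie in the grey range on every array.

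The arrays had medians of 3.38 to 3.47, and their number limits the precision. Replicates A and B of E17.5 were unusually alike. Among genes averaging 6 or more, the spread (SD) of A minus B was 0.152, against 0.412 to 0.551 for the 5 other same-age pairs. For the 8 members with a mean of at least 4 they differed by at most 0.24. The labels call the replicates biological, but the p-values measure only the spread between these arrays, so each fit was repeated with A and B averaged as 1 sample. All 7 called members stayed called there, with adjusted p between 0.000399 and 0.0346 (limma), and likewise without any 1 array. Pax7, the gene that defines the sort, averaged 12.37 at E17.5 and 11.46 at E12.5 (difference 0.91, adjusted p = 0.0105 by limma), with the lowest E17.5 array at 12.2 and the highest E12.5 array at 11.75. In sorted bulk cells, a larger share of cells with a transcript and more of it per cell cannot be told apart.

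The Fos family held the largest difference of the 10 genes and also 1 gene near background. Fosb encodes a Fos protein that also exists as a truncated, stable splice form. It stood at 10.41, 10.42 and 10.20 on E17.5 arrays A, B and C, against 2.31, 1.94 and 2.55 on the E12.5 arrays. The difference of 8.08 (SE 0.24, adjusted p = 2.65e-05 by limma) is set against arrays in the low range. With every value under 4 raised to 4 it was 6.34, or 81.2-fold.

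Fos, the founding member, was bright at both ages. It stood at 14.79, 14.80 and 14.42 at E17.5, against 10.80, 8.46 and 11.72 at E12.5. The E17.5 arrays were tight (14.67 ± 0.22, SD, n = 3) and the E12.5 arrays wide (10.33 ± 1.68, n = 3), yet the lowest E17.5 array lay 2.70 above the highest E12.5 array. The difference was 4.34 (SE 0.76, adjusted p = 0.01 by limma), 20.3-fold. It was 3.41 without E12.5 replicate B, the lowest array, and 5.04 without E12.5 replicate C, the highest.

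Fosl2 encodes Fra-2, a Fos protein without the strong activation domain of Fos. On its brighter probe set, 1437247_at, it stood at 9.79, 9.72 and 10.53 at E17.5, against 5.91, 5.52 and 5.12 at E12.5. The ages were separated by 3.81, and the difference was 4.50 (SE 0.30, adjusted p = 0.000232 by limma). Its other probe set, 1422931_at, lay between 2.24 and 2.37 on all 6 arrays and differed by 0.04, so the rise of Fosl2 rests on 1 of its 2 probe sets. Fosl1, which encodes Fra-1, lay between 1.93 and 2.09 on all arrays on both of its probe sets. These arrays therefore hold no signal for Fosl1 that stands apart from background at either age.

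The promoters of Fos and Fosb are printed because both genes rose together, with the 130 bases before the annotated transcription start (RefSeq, GRCm38.p6), 5′ to 3′ on the strand of the gene. Capitals mark the letters TGACG, the core of the cAMP response element, the longer TGACNTCA, and TATAAA, each searched on both strands.
Fos: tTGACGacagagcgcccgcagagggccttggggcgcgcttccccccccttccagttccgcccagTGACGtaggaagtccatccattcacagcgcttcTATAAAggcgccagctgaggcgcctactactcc
Fosb: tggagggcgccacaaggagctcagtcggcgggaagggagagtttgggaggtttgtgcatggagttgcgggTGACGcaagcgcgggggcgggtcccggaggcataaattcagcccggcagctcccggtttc
The Fos stretch is chr12:85473760-85473889 on the plus strand and the Fosb stretch is chr7:19310046-19310175 on the minus strand. Fos holds the core from base -66 to -62 before the start, and again from -129 to -125. Fosb holds it from -60 to -56.

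In the Jun family Junb and Jun rose and Jund was not called. Junb, which can oppose Jun in growth control, stood at 9.17, 9.18 and 8.48 at E17.5, against 2.94, 3.09 and 5.0 at E12.5. Its E12.5 replicate C stood above A and B, and the ages stayed 3.48 apart. The difference was 5.27 (SE 0.58, adjusted p = 0.00149 by limma), and 4.61 with values under 4 raised to 4.

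Jun, the founding Jun gene, stood at 13.18, 13.19 and 12.34 at E17.5, against 10.13, 10.02 and 10.60 at E12.5, and its ages lay 1.74 apart. The difference was 2.65 (SE 0.27, adjusted p = 0.00108 by limma), 6.29-fold. Its second probe set, 1448694_at, stood at 11.90, 12.00 and 11.68 at E17.5, against 9.35, 9.09 and 9.68 at E12.5. That difference of 2.49 (adjusted p = 0.000726 over all 44994 probe sets, limma) was close in size, so both readings of Jun rose.

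Jund, the most steadily expressed Jun gene in many tissues, stood at 12.54, 12.52 and 11.26 at E17.5, against 10.99, 10.98 and 11.20 at E12.5. The E17.5 replicate C overtook the highest E12.5 array by only 0.06. The difference of 1.05 (SE 0.34) was not called (adjusted p = 0.0884 by limma). Without E17.5 replicate C it was 1.47 and called (adjusted p = 0.00112), and with A and B averaged it was 0.84 (adjusted p = 0.239). It was also called with all 6 arrays when genes averaging under 4 were dropped (adjusted p = 0.0422), and when arrays were weighted (0.000132), so its call turns on 1 array and on the processing. Its second probe set, 1440265_at, stayed between 2.31 and 2.40.

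The Jun and Junb promoters are shown with the same marking, for the pair of Jun genes that rose.
Jun: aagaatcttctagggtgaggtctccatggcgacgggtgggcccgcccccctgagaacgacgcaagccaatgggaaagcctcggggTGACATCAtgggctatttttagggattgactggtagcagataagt
Junb: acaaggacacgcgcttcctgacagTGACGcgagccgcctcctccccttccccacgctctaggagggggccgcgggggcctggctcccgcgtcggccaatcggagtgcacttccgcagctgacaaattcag
The Jun stretch is chr4:95052223-95052352 and the Junb stretch is chr8:84978749-84978878, both on the minus strand. Jun holds TGACNTCA from base -45 to -38, and Junb holds the core from -106 to -102.

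Atf3 encodes a stress-inducible ATF protein that represses many of its targets and pairs with Jun proteins. It stood at 9.18, 8.94 and 8.44 at E17.5, against 2.66, 3.0 and 3.06 at E12.5. All E12.5 arrays lay in the low range and all E17.5 arrays above 8. The difference was 5.95 (SE 0.28, adjusted p = 7.99e-05 by limma), and 4.85 or 28.9-fold with the floor at 4.

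Maff encodes a small Maf protein, a bZIP factor that lacks an activation domain of its own. It stood at 9.06, 9.02 and 9.28 at E17.5, against 4.53, 3.89 and 5.02 at E12.5. The ages were 4.0 apart, and the difference of 4.64 (SE 0.31, adjusted p = 0.000244 by limma) hardly moved with the floor (4.6). Batf, an AP-1 partner best known from lymphocytes, lay between 2.60 and 2.66 on all 6 arrays (difference -0.01, adjusted p = 0.896), and nothing can be said of its level beyond background.

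The promoters of Atf3 and of 1 of the 3 annotated starts of Maff are printed because they hold the matches nearest to the start.
Atf3: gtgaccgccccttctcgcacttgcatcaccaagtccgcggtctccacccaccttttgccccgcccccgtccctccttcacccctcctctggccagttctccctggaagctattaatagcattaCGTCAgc
Maff: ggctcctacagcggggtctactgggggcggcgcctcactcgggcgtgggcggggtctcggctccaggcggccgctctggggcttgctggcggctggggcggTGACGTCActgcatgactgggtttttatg
The Atf3 stretch is chr1:191183334-191183463 on the minus strand and the Maff stretch is chr15:79347390-79347519 on the plus strand. In Atf3 the core lies on the opposite strand from base -7 to -3, where it reads CGTCA. In Maff the palindrome from -29 to -22 matches both TGACNTCA and, on each strand, the core inside it.

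Across the 250 bases before the start, 9 of the 10 members were matched to 11 promoter windows. The core TGACG was found in 7 of these windows and in 6 genes, namely Fos, Fosb, Junb, Atf3, Maff and Batf, and 17.8% of all 32851 windows searched hold it. TGACNTCA, which the core can overlap, was found in Jun and Maff, against 7.49% of all windows. TGANTCA, the TPA response element with its middle base free, was found in none of the 11 (6.75% of all windows), nor was the CArG box of serum response factor (1.47%). TATAAA was found in Fos only (12.4% of all windows). Batf, at background on these arrays, holds the core too, and Fosl2, which rose, holds none of these motifs in its window. A match describes letters and does not show binding. Bases further upstream were not searched, so a motif absent from a window may still lie there.

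**Figure D2:**
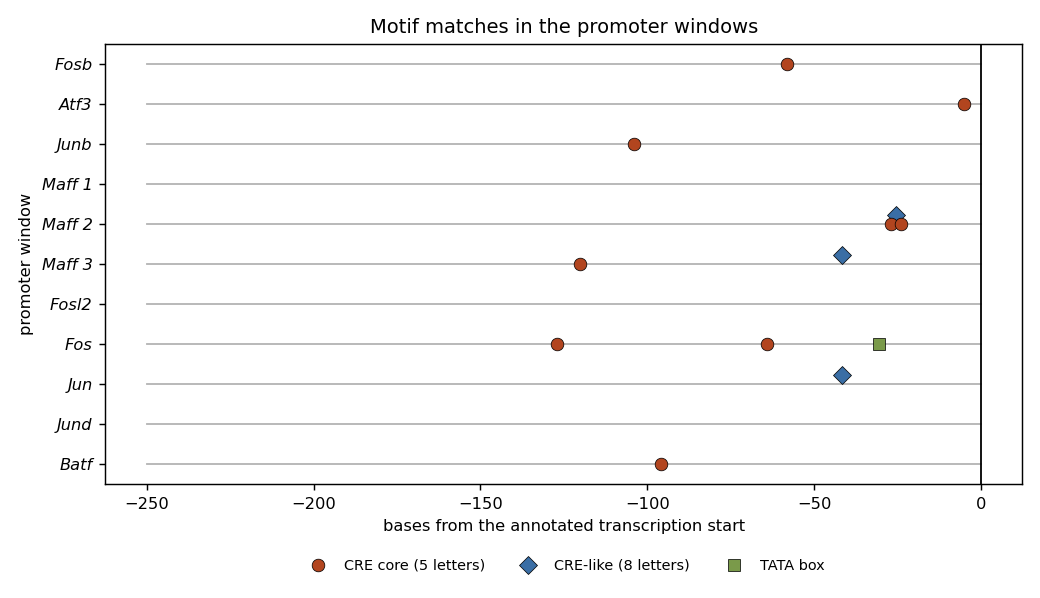
Motif matches (symbols) in the 250 bases before each annotated transcription start (horizontal axis, bases), 1 row per promoter window with genes in order of their difference. Matches lie within 130 bases of the start in every window that has one.

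Ordered by size, the differences ran from Fosb (8.08) through Atf3 (5.95), Junb (5.27), Maff (4.64), Fosl2 (4.50), Fos (4.34) and Jun (2.65) to Jund (1.05). Maff, Fosl2 and Fos were within 1 SE of Fos of each other, and their order is not resolved. Raising values under 4 to 4 narrowed the span of the leading genes: Fosb was then at 6.34, Atf3 at 4.85, Junb at 4.61 and Maff at 4.6. The differences of different genes were not tested against each other, and their probe sets respond with different strength, so signal levels are compared only within a gene.

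**Figure D3:**
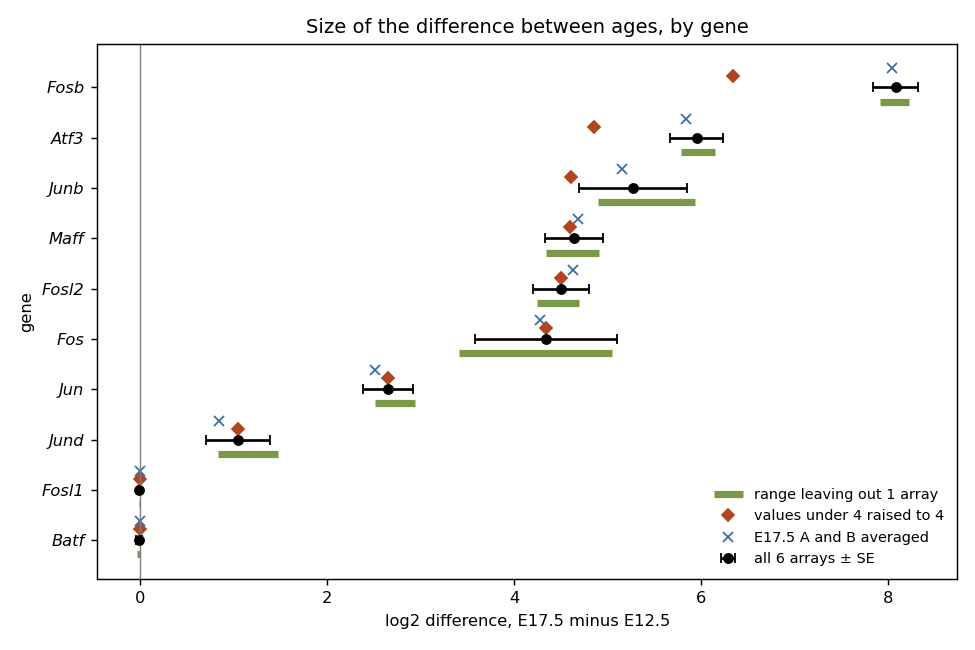
Log2 difference, E17.5 minus E12.5 (horizontal axis), of each gene with all 6 arrays (black, ± SE), with values under 4 raised to 4 (diamonds), with E17.5 A and B averaged (crosses), and the range when 1 array is left out (bars). Fosb moves most with the floor (8.08 to 6.34), and Fos has the widest bar, from 3.41 to 5.04.

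Within each age the members tended to be high or low on the same array. E12.5 replicate C was the highest of its age for 7 of the 8 members with a mean of at least 4, all but Fosl2, and E12.5 replicate B the lowest for 5. Fosb and Atf3 reach that mean only through E17.5. Their E12.5 arrays all lie under 4, as do A and B for Junb, so their order there says little. Jund stood at 10.98 on B, against 10.99 on A. Fos deviated from its E12.5 mean by 1.39 on replicate C and by -1.87 on replicate B, and Junb by 1.32 on replicate C. E17.5 replicate C was the lowest of its age for 6 of the 8, by -0.85 for Jund and -0.56 for Jun, while Fosl2 (0.52) and Maff (0.16) were highest on it. The members are not independent readings of an array, and 3 arrays per age allow no test of this pattern.

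**Figure D4:**
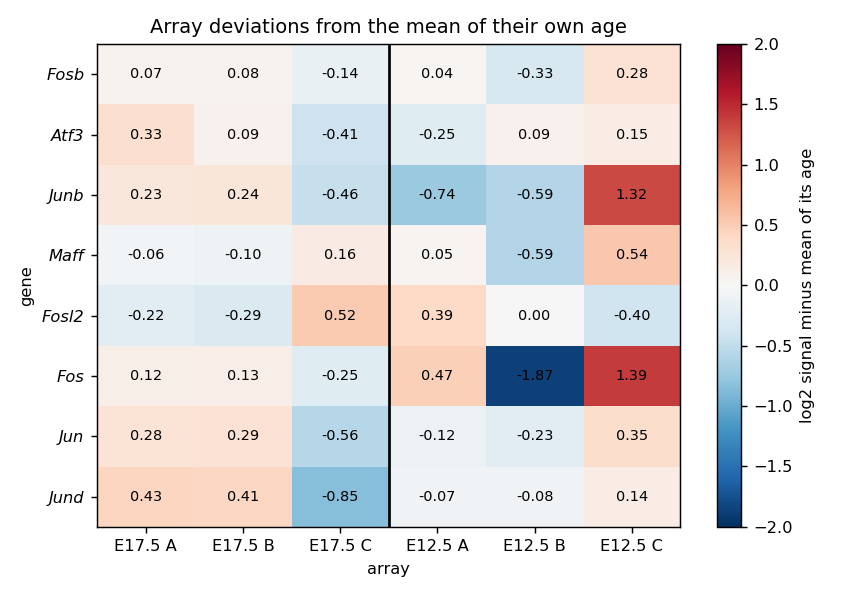
Deviation of each array (columns) from the mean of its own age for the 8 genes with a mean of at least 4 (rows), in log2 units, red above and blue below. E12.5 replicate C is mostly red and E17.5 replicate C mostly blue, with Fosl2 the exception on both. The E12.5 signals of Fosb and Atf3 lie under 4 on every array.

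The genes outside the group whose centred profile lay nearest to a member were found by Euclidean distance over the 6 arrays, among 8750 genes with a mean of at least 6. Nearest to Fos came Egr2, an immediate early zinc finger gene, then Pdk4, Rcan2, a calcineurin regulator, Irf1 and Socs3, a feedback inhibitor of cytokine signalling. Egr2 stood at 11.73, 11.72 and 11.68 at E17.5, against 8.63, 5.16 and 9.41 at E12.5. It shared the low E12.5 replicate B and the high replicate C with Fos, and its call (adjusted p = 0.0404, limma) was lost with A and B averaged (0.103) and without any 1 of E17.5 A, E17.5 B, E17.5 C and E12.5 A. Nearest to Jun came Dusp1, a MAP kinase phosphatase, then Lama2, a laminin gene, Tmem38b, Tnc, a matrix glycoprotein gene, and Pald1. Dusp1 stood at 12.06, 12.13 and 10.95 at E17.5, against 8.80, 8.92 and 9.66 at E12.5. With 6 arrays in 2 ages, such likeness mostly reflects the step between the ages.

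Chromosome neighbours of the 7 called members were mostly not called. Of the 14 nearest measured coding genes on either side, 3 were called higher (21.4%, against 8.21% of all genes), 1 lower and 10 were not called, with a median difference of 0.02. The genes called were Jdp2 and Tmed10, on either side of Fos, Rtn2 beside Fosb, and Prdx2, which was lower, beside Junb. Jdp2, an AP-1 repressor of the bZIP family, stood at 9.72, 9.95 and 9.11 at E17.5, against 4.89, 6.64 and 4.83 at E12.5 (difference 4.14, SE 0.52, adjusted p = 0.00265 by limma). It is the only measured coding gene between Fos (4.34) and Batf (-0.01) in the RefSeq order. Tmed10 differed by 0.57, Rtn2 by 1.27 and Prdx2 by -0.4. With A and B averaged Tmed10 (adjusted p = 0.0543, limma) and Prdx2 (0.155) were not called, and Rtn2 was at 0.0864 in its weakest fit with 1 array left out. The neighbours were looked up after the members' values were known.

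Other bZIP genes, the possible partners and competitors of AP-1, also included rises and no falls. Of 31 measured, 10 were called higher (32.3%, against 8.21% of all genes) and 0 lower, with a median difference of 0.28. The leading rises after Jdp2 were those of the C/EBP genes Cebpb (2.66, SE 0.56, adjusted p = 0.0203 by limma) and Cebpd (2.61, SE 0.27, adjusted p = 0.00112). The call of Cebpb was lost with A and B averaged (adjusted p = 0.0666) and without E17.5 replicate A, E17.5 replicate B or E12.5 replicate B. The count of 10 was 6 with A and B averaged, and 6, 4 and 6 without those same arrays in turn.

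Among the MAP kinases, their kinases and the serum response factors that switch on Fos and Jun, 4 of 19 measured genes rose (21.1%), 5 fell and 10 were not called (median -0.0). Over all genes 8.21% were called higher and 8.73% lower. Elk4, a partner of serum response factor, rose by 0.98, the ERK kinase gene Map2k1 rose by 0.79 and Srf itself rose by 0.61. The Elk genes did not move together. Elk3 fell, with a difference of -1.56 (adjusted p = 0.00671, and 0.0223 with A and B averaged, limma), and Elk1 (-0.31) was not called. The leading falls were those of Map2k6 (-1.92), a kinase of p38 proteins, and of the p38 genes Mapk12 (-1.77) and Mapk11 (-1.69). The other p38 genes, Mapk14 (0.10) and Mapk13 (-0.0, at background), and the p38 kinase gene Map2k3 (0.48) were not called. Mapk12 was not called with A and B averaged (adjusted p = 0.0625, limma), nor without E17.5 replicate A, E17.5 replicate B or E12.5 replicate C. The 5 falls were 3 in each of these fits.

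Genes that damp the response were mixed. Of 11 MAP kinase phosphatases 4 rose (36.4%, against 8.21% of all genes), 1 fell and 6 were not called (median 0.76). Dusp8 rose by 4.04 (2.77 with the floor at 4), Dusp1 by 2.59 and Dusp10 by 1.96, and Dusp9 fell, with a difference of -5.09. The call of Dusp10 was lost with A and B averaged (adjusted p = 0.127, limma) and without any one of E17.5 A, E17.5 B, E12.5 A and E12.5 B. Of 8 regulators of AP-1 transcript decay and protein turnover 3 rose (37.5%) and 1 fell (median 0.27). Of all genes with a mean of at least 4, 13.4% were called higher. Zfp36, whose protein tristetraprolin destabilises AU-rich transcripts such as that of Fos, stood at 9.50, 9.61 and 8.58 at E17.5, against 4.73, 4.87 and 6.23 at E12.5 (difference 3.95, SE 0.47, adjusted p = 0.0022 by limma). Zfp36l2 rose by 1.5 and Zfp36l1 by 0.87. Det1, a ubiquitin ligase component that acts on Jun, had a difference of -0.96, called in the full fit but not with A and B averaged (adjusted p = 0.0617), nor without E17.5 A, E17.5 B or E12.5 C.

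Of 23 textbook AP-1 targets measured, 4 rose (17.4%), 2 fell and 17 were not called. The median of 0.01 is set largely by the 13 with a mean under 4. Of the 10 with a mean of at least 4, 4 rose, 2 fell and 4 were not called, with a median of 0.07, and 13.4% of all genes with such a mean were called higher. Cxcl1, a chemokine gene, stood at 10.02, 9.85 and 9.12 at E17.5, against 3.85, 3.50 and 2.31 at E12.5 (difference 6.44, 5.66 with the floor). It meets that mean only through E17.5, so the count of rises among the 10 depends in part on the rise itself. Cd44, the hyaluronan receptor gene, stood at 11.52, 11.50 and 11.95 at E17.5, against 5.43, 5.63 and 4.72 at E12.5 (difference 6.40). Vim differed by 1.39, a call lost with A and B averaged (adjusted p = 0.0672, limma) and without E17.5 A, E17.5 B or E12.5 C. The gap junction gene Gja1 and the cyclin gene Ccnd1 fell, with differences of -3.35 and -0.89. Without E17.5 replicate B 2 targets rose.

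**Figure D5:**
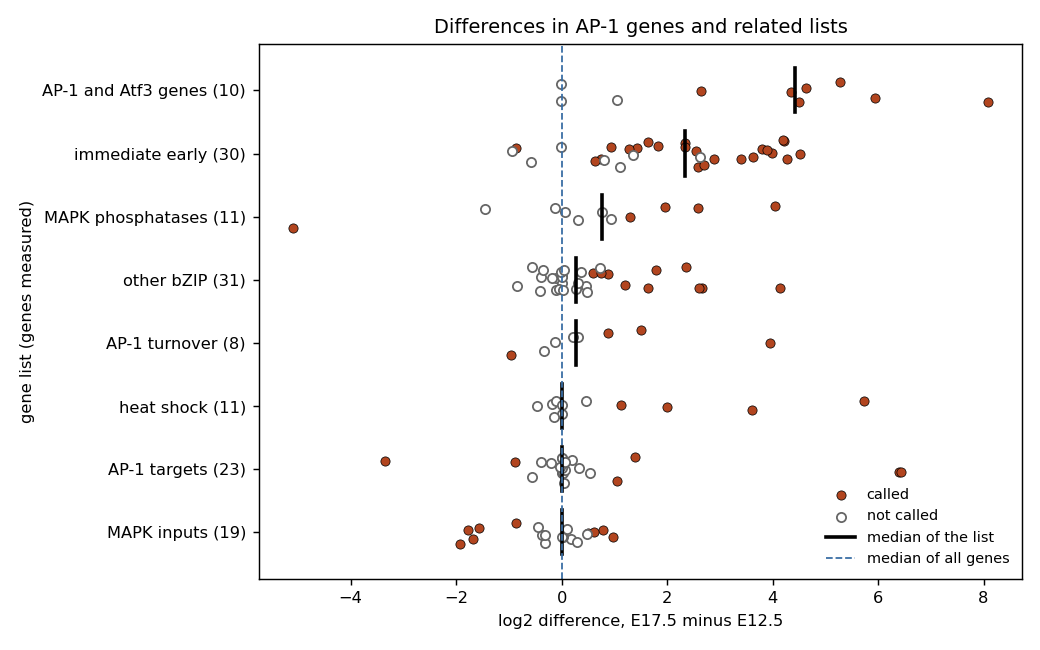
Log2 difference, E17.5 minus E12.5 (horizontal axis), of the AP-1 and Atf3 genes and of the members of 7 related gene lists (rows, genes measured in brackets). Filled points passed the test, open points did not, black bars are list medians and the dashed line is the median of all genes (0.003). The AP-1 genes (median 4.42) and the immediate early genes (2.33) lie furthest right.

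Of 30 other immediate early genes measured, 22 rose (73.3%), 1 fell and 7 were not called, with a median of 2.33, and 17 rose with A and B averaged. Beside this, 8.21% of all genes were called higher, and 13.4% of those with a mean of at least 4. Socs3 rose by 4.52, the Krüppel-like factor gene Klf4 by 4.27 and the nuclear receptor gene Nr4a3 by 4.22. Ier5 fell, with a difference of -0.86 (adjusted p = 0.0159 by limma; 0.0504 without E17.5 replicate A).

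Heat shock genes, induced by protein damage, were divided. Of 11 measured, 4 rose (36.4%), 0 fell and 7 were not called, and the median was 0.01. Among all genes 8.21% were called higher, and 13.4% of those with a mean of at least 4. Hspa1a stood at 9.64, 9.53 and 7.38 at E17.5, against 2.45, 2.93 and 3.98 at E12.5 (difference 5.73, 4.85 with the floor), and Hspa1b, a near-identical copy whose signal the array may not separate, differed by 3.60. Bag3, a chaperone partner, rose by 2.0. Like Fos and Jun, both Hspa1 genes were lowest on replicate C among the E17.5 arrays and highest on replicate C among the E12.5 arrays. The other heat shock genes called, Bag3 and Hspb1 (1.13), were instead highest on replicate C among the E17.5 arrays. The E12.5 values of Hspa1a all lie under 4, so their order there says little. The labels give the same digestion for both ages, with no undigested sample. The part of digestion or other cell stress in the rise of AP-1 was not tested.

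Markers of other cells moved with age in places, and their part in the AP-1 differences was not tested. The level of a list is given as the log2 of its summed signal. For 11 macrophage markers it was 7.75 to 7.90 at E17.5, against 6.78 to 7.76 at E12.5. Cd68 (2.99) and Lyz2 (1.06) rose, with Lyz2 not called when A and B were averaged (adjusted p = 0.108, limma), nor without any 1 array other than E17.5 C. Ptprc, the pan-leukocyte gene, lay between 2.40 and 2.74 on all arrays. All 5 lymphoid markers measured, Ms4a1 and Cd79a among them, were under 4 on every array (4.90 to 5.11 at E17.5 and 4.81 to 4.97 at E12.5). The 7 endothelial markers stood at 10.13 to 10.40 at E17.5, against 6.54 to 7.74 at E12.5. Tek (4.88) alone of them rose and carries that sum, and Pecam1 lay between 2.21 and 2.44. Kdr (-1.37), Cldn5 (-0.83), Emcn (-0.75), Cdh5 (-0.35) and Tie1 (-0.32) were lower but not called, and the list median was -0.35. Of 5 keratinocyte markers (10.32 to 11.47 at E17.5, against 9.43 to 10.08) Krt10 rose (2.14) and Trp63 fell (-2.39). Krt10 carries that sum: Krt5 (-0.81), Krt14 (-0.89) and Krt15 (-0.97) were lower but not called, and the list median was -0.89.

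Other lists were lower or mixed at E17.5. The 6 erythroid markers stood at 5.72 to 6.31 at E17.5, against 13.03 to 14.94 at E12.5, where Hbb-y, Hba-x and Hbb-bh1 were high. Of these Hbb-y (-10.41) alone stayed called with A and B averaged, and it carries the E12.5 sum, which thus reads 1 gene more than the list. Hba-a1 lay between 2.33 and 2.47 on every array, and Alas2 (0.69) and Klf1 (-0.05) were not called. The 4 Schwann cell markers stood at 9.67 to 10.04 at E17.5, against 12.31 to 12.93, carried by Erbb3 (-2.80), with Sox10 between 2.30 and 3.84. The 5 cartilage markers stood at 8.11 to 9.76 at E17.5, against 11.75 to 12.57, and Col9a1 alone of them was called, though not without any 1 of the E12.5 arrays. Of 8 fibroblast markers (11.64 to 12.05 at E17.5, against 10.25 to 12.75) Dpt and Col1a1 rose and Pdgfra, Twist2 and Prrx1 fell. Of these Dpt and Pdgfra stayed called with A and B averaged, but Pdgfra was not called without any 1 of E17.5 B, E17.5 C, E12.5 A and E12.5 B (adjusted p up to 0.0795, limma). E12.5 replicate B, the lowest array of its age for Fos, stood apart. Its summed level was the highest of its age for the fibroblast (12.75), cartilage (12.57), macrophage (7.76), endothelial (7.74), erythroid (14.94) and keratinocyte (10.08) lists. It was the lowest of its age for the Schwann cell (12.31), lymphoid (4.81, at background) and muscle (13.56) lists. The mean over the muscle list was instead lowest on E12.5 replicate A (9.89, against 10.25 on B and 10.49 on C). Myf5 and Pax7 were lowest on B, whereas Myod1, Myog, Des, Cdh15 and Chrna1 were lowest on A. Without E12.5 replicate B 7 members were still called higher. The 7 muscle markers stood at 14.67 to 14.86 at E17.5, against 13.56 to 13.83 at E12.5, with rises of Chrna1 (2.53), Myog (1.86) and Pax7 (0.91).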

How the data were processed

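Sorted limb cells were profiled on 6 Affymetrix arrays with 1 colour each. The authors deposited log2 signals, 1 per probe set. Per the submitters' processing notes they used GCRMA, whose version is not given in the sources used here. Per the labels' protocols RNA was amplified from the 3' end, so signals depend on RNA integrity and probe position.

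Of 44994 probe sets, 34909 had 1 symbol in the platform annotation (34705 matched by entrez ID to RefSeq GRCm38.p6), 931 had several and 9154 were unnamed here. Under R 4.3.3, limma 3.58.1 compared the ages (lmFit, then eBayes with trend = TRUE) over all 18182 genes, and separately over all probe sets, with Benjamini-Hochberg adjustment and a threshold of 0.05. The fit was tested on simulated data. Their noise was drawn independently for each array, so that test did not cover the likeness of E17.5 A and B. Named list genes are up to 3 called in each direction, or the 2 brightest of a list without calls. The members, lists and tests were chosen with earlier results of these data known. Alternatives covered the variance prior, array weights, a floor and a filter at 4, probe set choice, normalization, the replicate letter, a single averaged sample for E17.5 A and B, and omission of each array. Replicate letters were not treated as pairs in the main fit. Deviations of same-lettered arrays from the mean of their age correlated at -0.38, 0.255 and -0.07 for A, B and C. With 3 arrays per age these deviations constrain each other, so they cannot settle whether the letters pair the samples.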

Additional observations from a re-analysis of the deposited data

How the results depend on the processing

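The 10 members kept their side of the threshold in 154 of 158 refits over 16 alternatives, and the 7 called members were higher and called in all 112 of theirs. Fosl1 and Batf had a difference of 0.0 with values under 4 raised to 4, so no direction. The other 4 passed the threshold where the full fit did not. Jund did so with array weights (1.34), when genes averaging under 4 were dropped (1.05, adjusted p = 0.0422, limma) and without E17.5 replicate C (1.47). With array weights Fosl1 was called lower by a difference of -0.02 in the background range, so that 1 gene and 1 probe set were called lower, against 0 in the full fit; those weights were 4.97 and 3.24 for E17.5 A and B, against 0.14 for E17.5 C. Over all probe sets 7 to 9 of the 14 were called higher. Fos alone lost its call there, without the intensity trend (adjusted p = 0.0519, limma), with the floor (0.0736), the replicate block (0.0504) or averaging (0.0751), and without E17.5 A (0.0745), B (0.0815) or C (0.0517). The mean of all probe sets gave Fosl2 2.27 and Jund 0.54, since each has a second probe set near background. The replicate block left 7 members called higher and 0 lower, and changed no member's call over genes, while genes called lower over the whole array were 1014 against 1587. Over all alternatives 970 (without E17.5 B) to 3204 (array weights) genes were called higher, against 1493, and 771 to 5219 lower.

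List counts were recomputed in the same fits, as alternatives added after the data were seen. Rises ranged from 4 to 15 for the other bZIP genes (6 with the floor or the replicate block), 1 to 5 for the MAP kinases (1 with the mean of all probe sets), 3 to 6 for the phosphatases, 2 to 4 for turnover genes, 2 to 4 for targets, 16 to 26 for immediate early genes and 3 to 5 for heat shock genes. Falls ranged from 0 to 5, 3 to 8, 1 to 3, 0 to 2, 2 to 7, 0 to 3 and 0 to 2 in the same order, each highest with array weights. Signals under 4 limit what can be said of Fosl1 and Batf, and of the E12.5 level of Fosb and Atf3. RNA integrity was not assessed.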
